A study of Homo sapiens with 15 samples.

Results

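The genes described here are 34 nucleolar ribosome biogenesis factors, which were taken from a named list of ribosome production and RNA polymerase I genes together with MYC. Each symbol was matched to 1 gene identifier in GENCODE release 29, so that the 34 genes are a subset of 58721 annotated genes. The rule used no expression value, but the list was chosen with earlier results of these data known. RNA-seq of total RNA was done on MelJuSo, a human melanoma cell line, in 15 libraries from 5 derived lines with 3 libraries each (A, B and C). In 4 of the lines the tag vector was 5xALFA-dCas12a-VP64, a nuclease-dead Cas12a carrying a repeated epitope tag and the activation domain VP64. These 4 lines also expressed a nanobody against the tag, fused to VP64 in one pair and to p65 in the other, so that the p65 pair carried VP64 on dCas12a as well. In each pair, one line held a cassette of 3 guides aimed at CD4 and the other held no guides. The fifth line expressed 5xALFA-dCas12a with the nanobody alone and held no guide cassette; it is the line without an activation domain, and it differs from the others both in dCas12a and in the nanobody. All cells were harvested at confluency. The labels do not say whether a line is a clone or a pool, nor whether its 3 libraries came from separate cultures, so that the p-values reflect the spread among these samples alone, and that spread may be technical.

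Ribosomes are assembled in the nucleolus, where RNA polymerase I transcribes a long precursor of the ribosomal RNAs. Small nucleolar ribonucleoproteins (snoRNPs) guide methylation (box C/D) and pseudouridylation (box H/ACA) of that precursor, and large assemblies of processing factors cut it and fold it into the small (40S) and large (60S) subunits. MYC is a transcription factor known to raise the expression of many of these factors, and with its partner MAX it binds the DNA hexamer CACGTG, called an E-box. Cells that grow and divide quickly, melanoma cells among them, need a high output of this pathway.

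The E-box was looked for in the promoters of the members, because it is a sequence feature that the choice of genes did not use. RefSeq promoter windows (GRCh38.p14, 250 bases before to 50 bases after each annotated start) were held for 28 of the 34 members, and BOP1, MYC, NOLC1, NOP58, RRP12 and RRP1B were not matched. The hexamer CACGTG, which reads the same on both strands, was present in the windows of 12 of the 28 members (42.9%). It was present for 2396 of 27305 genes in the whole table (8.77%), and for 1396 of the 11061 tested genes that the table holds (12.6%). All 12 motifs of the members began within 50 bases of the start, against 38.4% of the 1691 motifs in windows of tested genes, a distance limit chosen after the positions were seen. One example from each role that holds the motif is shown, with BYSL added for its part in the results, as the RefSeq sequence 5′ to 3′ on the strand of the gene. The E-box is in capitals, with 9 bases on each side.
DDX21, chr10:68956607-68956630, plus strand: cgggtgtccCACGTGgtccccggc
UTP20, chr12:101280086-101280109, plus strand: ttttccgtcCACGTGacccactca
FBL, chr19:39846359-39846382, minus strand: gctcttttcCACGTGcgaaagccc
BYSL, chr6:41921518-41921541, plus strand: ttcagtcccCACGTGcgatccttc
GAR1, chr4:109815784-109815807, plus strand: ccagaggggCACGTGgcgccggtg
NOP2, chr12:6568242-6568265, minus strand: tccggattgCACGTGgagggccgc

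Counting from the annotated start, the motif began 31 bases before it in DDX21 and 10 bases before it in UTP20. It began at base 7 after the start in FBL, at base 29 in BYSL, at base 32 in GAR1 and at base 36 in NOP2. The other members with the motif were UTP4, RRP9, WDR43, GNL3, PES1 and NOP14. The windows of POLR1A, POLR1B, POLR1C, UBTF and RRN3, the RNA polymerase I genes of the list, held no match. A match is a stretch of letters and not a measured binding site.

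Expected counts per library summed to between 15643705 and 23072512, and 19659 to 20632 genes had a count. CD4, the targeted gene, was at 0.53 to 2.16 TPM (a transcript abundance scaled by length and library total) in the line without an activation domain, 3.94 to 5.61 TPM in the other lines without guides, and 900 to 1035 TPM in the lines with guides. The melanocyte lineage gene SOX10 was at 122 to 237 TPM over the 15 libraries and the melanoma antigen PRAME at 88.7 to 121 TPM, while the pigmentation gene MLANA was at 0 to 0.53 TPM. Of 7 T cell markers, CD3D, CD3G and CD2 were at 0 in every library, and of 4 B cell markers MS4A1 was. Other genes on the lists of other cell types were expressed, among them IL7R at 27.6 to 78.7 TPM (T cell), CD79B at 0.25 to 11.7 TPM (B cell), CD68 at 42 to 101 TPM (myeloid) and KRT8 at 34.8 to 51.9 TPM (epithelial). IL7R also moved with the groups, at log2 fold changes of -0.79 and -0.68 with guides (VP64 and p65) and 1.30 and 1.29 against no activation domain. The summed level of the T cell list, nearly all of it IL7R, was 29.5 to 30.7 TPM without a domain, 72.4 to 79.9 TPM with a domain and no guides, and 41.2 to 54.2 TPM with guides. CD68 and CD79B rose in all 4 of these comparisons. The rest of the myeloid list did not follow CD68. Against no activation domain 4 of its 7 genes, CD14, ITGAM, CSF1R and CD163, fell with VP64 and with p65. The list medians there were -0.85 (VP64) and -1.40 (p65). The part of these genes in the results was not tested.

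All 34 members passed the filter on low counts. Their mean levels over the 15 libraries ran from 9.82 TPM to 3257 TPM, with UTP20 lowest and NPM1 highest. The summed level of the 34 members was 7477 to 7637 TPM in the line without an activation domain, 6520 to 6708 TPM with VP64 and 6580 to 6926 TPM with p65. With guides it was 4970 to 5331 TPM in the VP64 line and 5413 to 6249 TPM in the p65 line. In each pair the 3 libraries with guides thus lay below the 3 without. Without NPM1, which dominates the sum, the ranges with guides were 2506 to 2637 TPM (VP64) and 2751 to 2963 TPM (p65), against 3279 to 3333 TPM and 3362 to 3484 TPM without guides.

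The first comparison set the line with the CD4 guide cassette against its partner without it, where the nanobody carried VP64. A guide effect here is a difference between the lines of a pair, and its cause was not tested. Of the 34 members, 29 fell, none rose and 5 did not pass the threshold of an adjusted p of 0.05 in edgeR. Over all 14961 genes tested, 21.3% were lower and 19.3% were higher. The median log2 fold change of the members was -0.42, a level lower by 25.1%, while the median of all genes tested was close to 0. At an unadjusted p under 0.05 the number of members higher was also 0, as it was by the Wald test of DESeq2. In CPM, counts scaled to the size of the library but not to gene length, all 3 libraries with guides lay below all 3 without for 30 of the 34 members. No share of all genes with such a separation is given, so this count has no background beside it.

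With p65 on the nanobody, 27 of the 34 members fell with guides, none rose and 7 did not pass, against a background of 20.2% of genes lower and 18.7% higher. The number of members higher was 0 also at an unadjusted p under 0.05 and by DESeq2. The median log2 fold change was -0.29, a level lower by 18.1%. The 27 members that fell with p65 were all among the 29 that fell with VP64, and BOP1 and LAS1L passed only with VP64. Neither comparison passed for MYC, NHP2, NOB1, NOP14 and POLR1C. These comparisons share no library, and across the 34 members their log2 fold changes had a Pearson r of 0.885 (Spearman 0.858), against 0.609 (0.684) across all genes tested. These correlations are across genes of the same lines and are given as a description.

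**Figure D1:**
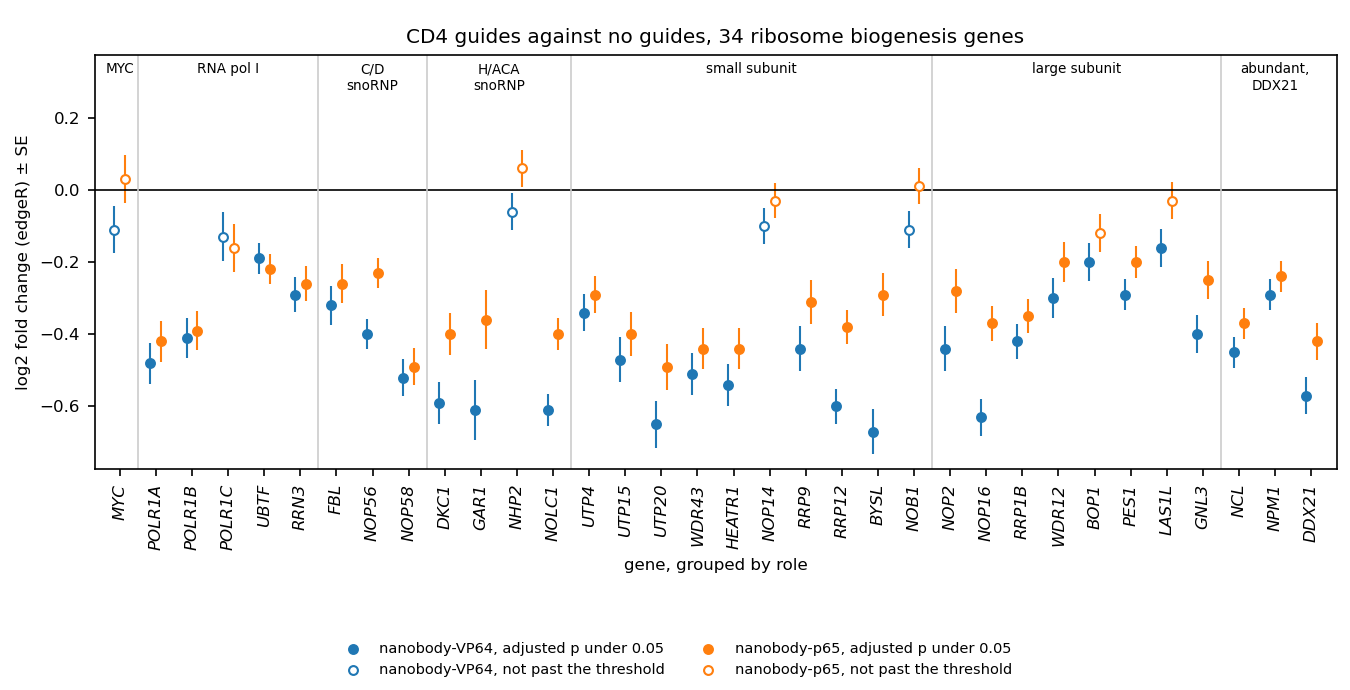
Log2 fold change of the 34 members (horizontal axis, grouped by role) with guides against no guides, ± SE from edgeR with 3 libraries per line, for the VP64 pair (blue) and the p65 pair (orange). Filled points passed an adjusted p of 0.05; with VP64 all 34 points lie below 0, while with p65 MYC, NHP2 and NOB1 lie just above 0.

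Other measures moved with the members. The 8 markers of cycling cells, such as MKI67, a protein of proliferating cells, and RRM2, a subunit of ribonucleotide reductase, all fell with guides in both pairs. Their summed level was 1425 to 1493 TPM (VP64) and 1486 to 1510 TPM (p65) without guides and 1133 to 1194 TPM and 1079 to 1184 TPM with guides. It was 1843 to 1877 TPM in the line without an activation domain. The summed level of the 10 melanoma and melanocyte markers was 323 to 349 TPM (VP64) and 305 to 317 TPM (p65) without guides, and 562 to 648 TPM and 422 to 540 TPM with them. Of 9 such markers tested, 7 rose with VP64, and with p65 6 rose and 1 fell. Of all genes, 19.3% were higher and 21.3% lower with VP64, and 18.7% and 20.2% with p65. The part of either marker list in the results on the members was not tested. In bulk RNA, fewer cells making a transcript cannot be told apart from less RNA per cell.

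**Figure D2:**
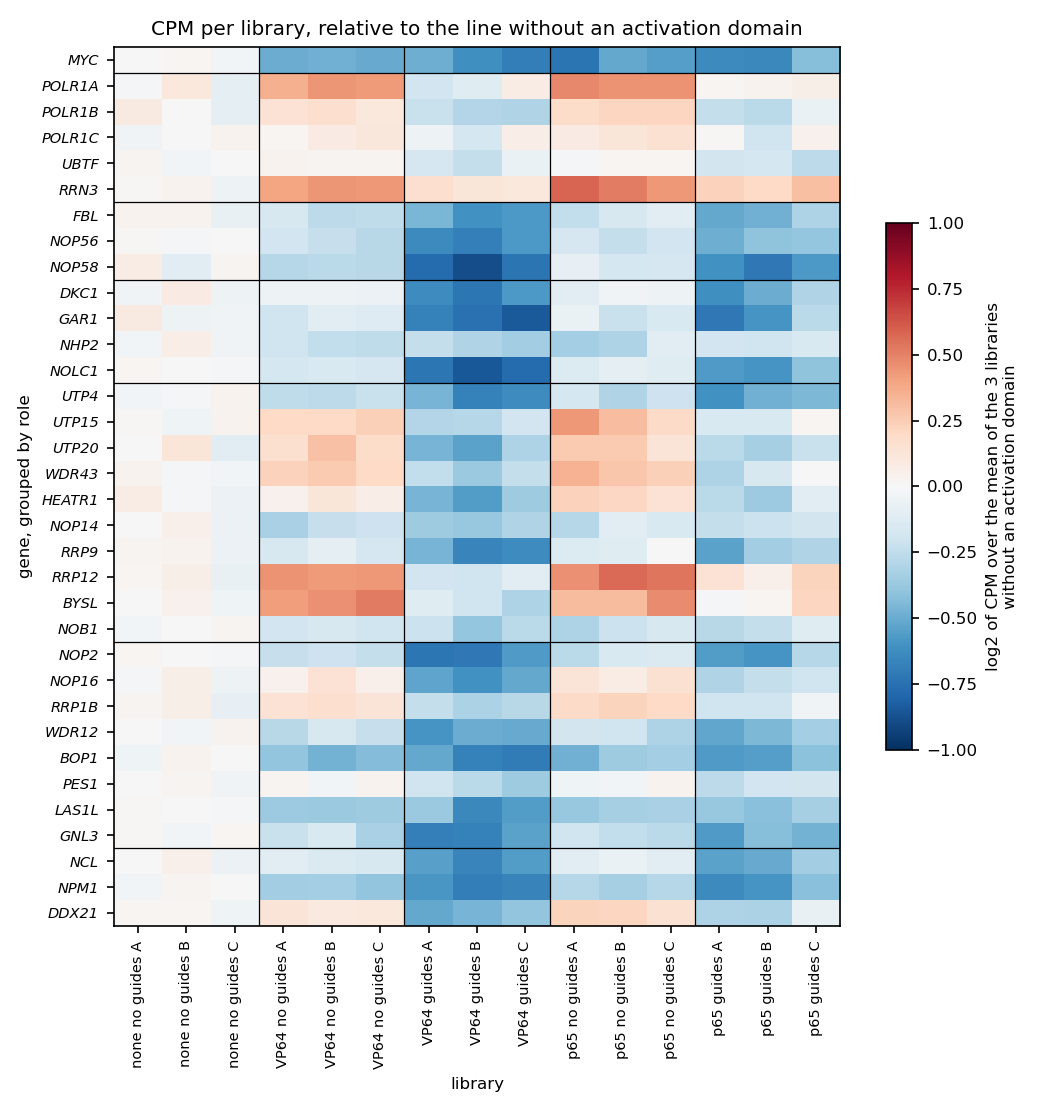
CPM of each member (vertical axis, grouped by role) in each of the 15 libraries (horizontal axis), as the log2 ratio to the mean of the 3 libraries without an activation domain. Blue is lower and red is higher than that line; the libraries with guides are bluer than their partners without guides for most genes, and MYC is lower in all 12 libraries with an activation domain.

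MYC itself was at 54, 51.2 and 51 TPM (libraries A, B and C) in the line without an activation domain. It was at 37.1, 38.3 and 36.7 TPM with VP64 and at 32.3, 37 and 36.5 TPM with p65, both without guides. With guides it was at 34.4, 41.7 and 35 TPM (VP64) and at 33.9, 39.1 and 38.2 TPM (p65). All 12 libraries with an activation domain were thus below the 3 libraries without one, and the 4 lines with a domain overlapped in TPM.

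By edgeR, MYC was lower than in the line without a domain with VP64, at a log2 fold change of -0.49 (adjusted p = 1.24e-06, SE 0.0631). With p65 the log2 fold change was -0.59 (SE 0.0631, adjusted p = 8.16e-08). Guides against no guides gave -0.11 with VP64 (95% interval -0.25 to 0.04, adjusted p = 0.212) and 0.03 with p65 (-0.12 to 0.18, adjusted p = 0.762). P65 against VP64 gave -0.10 without guides (-0.25 to 0.04, adjusted p = 0.526) and 0.04 with guides (-0.11 to 0.18, adjusted p = 0.831). The difference between the guide effects was 0.14 (-0.07 to 0.34, adjusted p = 0.627).

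Values for each library are given for MYC, UTP20, NOLC1, NOP58 and NPM1, and for further members chosen after their values were seen. Among the RNA polymerase I genes, 4 of 5 fell with guides in each pair. POLR1A encodes the largest catalytic subunit of the enzyme, POLR1B its other large subunit, RRN3 the initiation factor TIF-IA and UBTF the factor UBF, which binds ribosomal DNA. POLR1A was at 15, 16.6 and 14.5 TPM in the VP64 line without guides and at 9.7, 10.6 and 13.4 TPM with them. In the p65 pair it was at 16.1, 16.7 and 16.7 TPM without guides and at 11, 12.3 and 11.5 TPM with them. The groups did not overlap in either pair, and the log2 fold changes were -0.48 (SE 0.0566, adjusted p = 5.08e-07) and -0.42 (SE 0.0559, adjusted p = 2.98e-06).

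RRN3 was at 24.9, 25.1 and 25.1 TPM with VP64 and no guides, and at 20.6, 21.1 and 20.3 TPM with guides. In the p65 pair it was at 28.4, 26.6 and 25.3 TPM and, with guides, at 21.8, 21.1 and 23.2 TPM. RRN3 was thus lower with guides in both pairs (-0.29 and -0.26), yet at 18.5, 18.7 and 18.2 TPM the line without an activation domain was lower than all 12 other libraries. UBTF gave -0.19 and -0.22, and lost its call in both pairs when each gene's effective length in each library, as deposited, was added to the fit as an offset (-0.11, adjusted p = 0.185, and -0.15, adjusted p = 0.0667). RRN3 has 3 annotated pseudogenes and its reads may be split with them. POLR1C, a subunit shared with RNA polymerase III, gave -0.13 (95% interval -0.28 to 0.02) and -0.16 (-0.31 to -0.01) and passed in neither comparison. The call for POLR1C with p65 was made without library C of the p65 line with guides (-0.21, adjusted p = 0.0281).

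The 3 core proteins of box C/D snoRNPs fell in both pairs. FBL, the methyltransferase fibrillarin, was at 690, 633 and 650 TPM in the VP64 line without guides and at 564, 511 and 526 TPM with them. The p65 pair had 664, 708 and 752 TPM without guides and 545, 567 and 611 TPM with them. NOP58, a scaffold of the same particle, was at 124, 109 and 125 TPM against 82.2, 71.8 and 89.6 TPM in the VP64 pair. In the p65 pair NOP58 was at 155, 129 and 128 TPM against 96.1, 86.2 and 85.7 TPM. No library with guides reached the level of a library without guides for either gene. NOP58 had the largest fall of any member with p65 (-0.49, SE 0.0508, adjusted p = 1.11e-07) and a similar one with VP64 (-0.52, SE 0.0518, adjusted p = 5.63e-08). NOP56, the partner of NOP58, gave -0.40 and -0.23, and FBL gave -0.32 and -0.26.

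Of the box H/ACA group, DKC1, the pseudouridine synthase dyskerin, its partner GAR1 and the snoRNP chaperone NOLC1 fell in both pairs, and NHP2 in neither. NOLC1 was at 77.1, 77 and 77.5 TPM with VP64 and no guides and at 52.4, 48.6 and 51.9 TPM with guides. With p65 it was at 79.2, 80.4 and 78.3 TPM without guides and at 58.8, 56.7 and 63.9 TPM with them. The groups were far apart for their spread, with log2 fold changes of -0.61 (SE 0.0454, adjusted p = 6.45e-10) and -0.40 (SE 0.0446, adjusted p = 3.07e-07). DKC1 gave -0.59 and -0.40 and GAR1 -0.61 (SE 0.0843, adjusted p = 4.54e-06) and -0.36.

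NHP2, a core protein of the same H/ACA particle, gave -0.06 with VP64 (95% interval -0.18 to 0.05) and 0.06 with p65 (-0.05 to 0.18). Without library C of the p65 line without guides, NHP2 was called higher with p65 guides (0.15, adjusted p = 0.0135). That was the only member and the only left-out library that gave a higher call in a guide comparison.

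The small subunit group held the largest falls with VP64. Of its 10 members, 8 fell in each pair, with a median log2 fold change of -0.49 with VP64 and -0.34 with p65. UTP20, a very long scaffold protein of the early precursor, was at 11.2, 12.2 and 11.5 TPM without guides and at 7.17, 7.01 and 8.3 TPM with guides in the VP64 pair. In the p65 pair it was at 12.1, 12.5 and 11.2 TPM and, with guides, at 8.28, 7.9 and 8.49 TPM. UTP20 had the largest mean fall over both pairs of all members, at -0.65 (SE 0.0651, adjusted p = 6.02e-08) and -0.49 (SE 0.0637, adjusted p = 2.39e-06), with no overlap.

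BYSL, known as bystin and needed for 40S maturation, was at 93, 90.8 and 109 TPM against 63.7, 59.8 and 49 TPM in the VP64 pair. In the p65 pair it was at 82.6, 87.5 and 89.7 TPM against 76.6, 69.8 and 74.6 TPM. BYSL fell the most of all members with VP64 (-0.67, SE 0.0617, adjusted p = 1.6e-08) and gave -0.29 with p65 (SE 0.0602, adjusted p = 0.00052). With effective lengths as an offset in the fit, the p65 call for BYSL was lost (-0.22, adjusted p = 0.171). RRP12, a HEAT-repeat protein of pre-40S export and maturation, was at 51.7, 48.1 and 51.5 TPM against 32.2, 31.7 and 33.8 TPM with VP64. With p65 it was at 51.1, 54.3 and 54 TPM against 40.4, 39.3 and 42.2 TPM. Neither gene had overlapping groups, and RRP12 gave -0.60 (SE 0.0486, adjusted p = 2.33e-09) and -0.38.

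Of the other processome members, HEATR1, the human counterpart of UTP10, gave -0.54 and -0.44 (SE 0.057, adjusted p = 2.42e-06). WDR43, a WD-repeat subunit, gave -0.51 and -0.44 (SE 0.0571, adjusted p = 2.62e-06). UTP15, UTP4 and RRP9 fell in both pairs as well, by log2 fold changes between -0.29 and -0.47. NOP14 (-0.10 and -0.03) and the endonuclease NOB1 (-0.11 and 0.01), which makes the last cut of the 18S precursor, passed in neither pair. For NOB1 with VP64, all 3 libraries with guides were below the 3 without, at 69.5 to 74.1 TPM against 77.8 to 81.2 TPM, but the adjusted p was 0.104.

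All 8 members of the 60S group fell with VP64 and 6 fell with p65. NOP16 had the largest fall of the group with VP64 (-0.63, SE 0.0513, adjusted p = 2.94e-09) and gave -0.37 with p65. NOP2, a methyltransferase of the large ribosomal RNA, lies 218 kb from the start of CD4 on chromosome 12 and is the only member close to the targeted gene. It was at 67.8, 65.4 and 64.2 TPM without guides and at 45, 48 and 48.2 TPM with guides in the VP64 line, and it fell in both pairs (-0.44 and -0.28). GNL3 (nucleostemin), RRP1B and PES1 also fell in both. With the length offset the p65 calls of GNL3 (-0.25, adjusted p = 0.0593) and PES1 (-0.12, adjusted p = 0.184) were lost.

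BOP1 and PES1 form a complex with WDR12 that acts on the 60S precursor. BOP1 was at 104, 100 and 101 TPM against 99.2, 85.4 and 82.5 TPM in the VP64 pair, which did not overlap, and at 94, 108 and 106 TPM against 92.5, 91.5 and 101 TPM in the p65 pair, which did. Its log2 fold changes were -0.20 (adjusted p = 0.00504) and -0.12 (adjusted p = 0.0813), and the latter passed without library C of the p65 line with guides (-0.17, adjusted p = 0.0146) or library A of the p65 line without them (-0.16, adjusted p = 0.0328). LAS1L, an endonuclease subunit, gave -0.16 with VP64 (adjusted p = 0.0182), a call that was lost without any 1 of 5 of the 6 libraries compared (adjusted p from 0.052 to 0.165). Only library A of the VP64 line with guides could be left out without losing it. With VP64 the length offset also ended the calls of BOP1 (-0.19, adjusted p = 0.0698) and LAS1L (-0.15, adjusted p = 0.0937).

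WDR12 shows a limit of the length-scaled values. On counts it fell with guides in both pairs, by -0.30 with VP64 and -0.20 with p65 (adjusted p = 0.00508). As TPM it was at 15.7, 17.4 and 12.1 without guides and at 13.6, 18.4 and 24 with guides in the p65 pair, which is higher on average. Its effective length, which the quantification estimates per library from the transcripts it assigns, ran from 2586 to 5856 bases, a range of 2.26-fold. With these lengths as an offset the p65 guide effect was 0.33 (adjusted p = 0.343), so that the direction for WDR12 with p65 depends on how length is treated.

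NCL (nucleolin), NPM1 (nucleophosmin) and the RNA helicase DDX21 are abundant nucleolar proteins with several roles, and all 3 fell in both pairs. NPM1 was at 3361, 3241 and 3380 TPM with VP64 and no guides and at 2695, 2464 and 2671 TPM with guides. In the p65 pair it was at 3550, 3412 and 3096 TPM without guides and at 2661, 3011 and 3286 TPM with them. The p65 groups overlapped in TPM, and the log2 fold changes were -0.29 (SE 0.042, adjusted p = 9.86e-06) and -0.24 (SE 0.0419, adjusted p = 7.77e-05). With an effective-length offset the p65 call was lost (-0.15, adjusted p = 0.115). NPM1 is uncertain because GENCODE lists 45 pseudogenes of it, of which NPM1P27 had a mean of 278 TPM, so that reads may be split among copies. DDX21 gave -0.57 and -0.42 (SE 0.0508, adjusted p = 7.99e-07), and NCL gave -0.45 and -0.37.

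**Figure D3:**
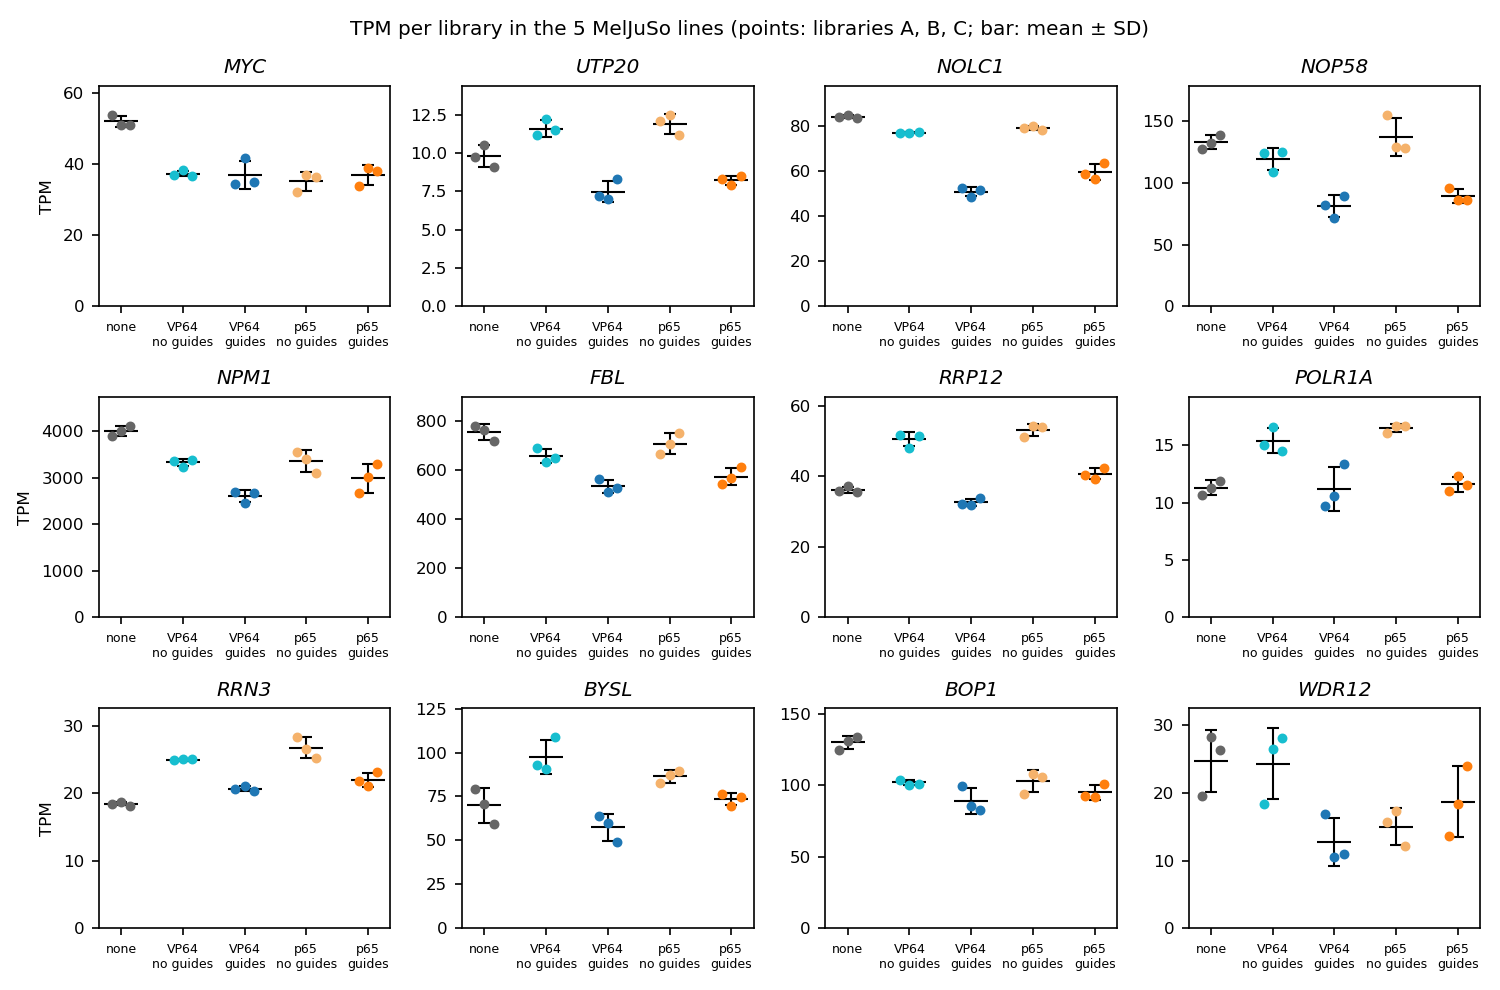
TPM of 12 members (vertical axes, from 0) in the 5 lines (horizontal axes), with 1 point per library and the mean ± SD (n = 3). MYC is high only in the line without an activation domain, UTP20, NOLC1, NOP58 and RRP12 are lower in both lines with guides than in their partners, and WDR12 spreads widely within lines.

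Guide effects were nearer 0 with p65 than with VP64 for 31 of the 34 members, and the difference (p65 minus VP64) was positive for 32. The test of that difference passed for 1 member, BYSL, and none was lower, against backgrounds of 0.769% of genes higher and 0.187% lower. At an unadjusted p under 0.05, 7 members were higher and none was lower, and DESeq2 called 2 higher, BYSL and NOLC1, and none lower. No share of all genes is given beside the counts by sign, by nearness to 0 or at an unadjusted p. BYSL gave 0.38 (SE 0.0863, 95% interval 0.19 to 0.57, adjusted p = 0.0296). The next largest differences were those of NOP16 (0.26, interval 0.10 to 0.42, adjusted p = 0.0873), GAR1 (0.25, -0.01 to 0.51), RRP12 (0.22, 0.07 to 0.37) and NOLC1 (0.21, 0.07 to 0.36). For the RNA polymerase I genes the differences were between -0.03 and 0.06. The BYSL call was lost without any 1 of 7 of the 12 libraries in this comparison, with adjusted p from 0.0654 to 0.107 and differences from 0.30 to 0.39. It was also lost with the length offset (0.55, adjusted p = 0.231) and with only the libraries compared (0.38, adjusted p = 0.0618). These libraries were B and C of the VP64 line with guides, B and C of the VP64 line without, C of the p65 line with guides, and A and B of the p65 line without.

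The lines with guides were also compared directly. With p65 against VP64, 7 of 34 members were higher and none lower, against 3.72% and 4.2% of all genes, and the median log2 fold change was 0.14. RRP12 gave 0.31 (SE 0.0491, adjusted p = 0.000267), NOP16 0.30 (SE 0.0524, adjusted p = 0.000619) and BYSL 0.29 (SE 0.0629, adjusted p = 0.00498). NOLC1 gave 0.26, DDX21 0.23, HEATR1 0.22 and NOP56 0.21. All members but UBTF were higher in the p65 line by point estimate, 25 of them at an unadjusted p under 0.05 with none lower, and DESeq2 called 12 higher and none lower. The counts by point estimate and at an unadjusted p have no share of all genes beside them. DDX21 was no longer called without library C of the p65 line with guides (0.14, adjusted p = 0.0502). HEATR1 was lost without library A (0.21, adjusted p = 0.0648) or B (0.17, adjusted p = 0.169) of the VP64 line with guides, or C of the p65 line (0.15, adjusted p = 0.181). A fit of only the libraries compared also ended the calls of DDX21 (adjusted p = 0.0533) and HEATR1 (0.0945), and the length offset those of HEATR1 (0.138) and BYSL (0.0896). The count of members called rose to 14 without library A of the p65 line and to 11 without library C of the VP64 line.

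Without guides, p65 and VP64 could not be told apart in these genes. No member passed in either direction by edgeR, where 0.388% of genes were higher and 1.72% lower with p65. DESeq2 also called none, and at an unadjusted p under 0.05 there were 2 higher (HEATR1 and NOP58) and none lower. The median was 0.04 and the estimates ran from -0.10 (MYC) to 0.14 (NOP58, 95% interval 0.02 to 0.25). For UTP20 the estimate was 0.00 (interval -0.14 to 0.14) and for GNL3 -0.01 (-0.12 to 0.11).

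The lines without guides were then set against the line without an activation domain. Here the members split. With VP64, 9 rose and 17 fell, against 23.6% of genes higher and 24% lower. The number that rose with VP64 is near the all-gene share. With p65, 12 rose and 15 fell, against 24.7% and 24.9%. The medians were -0.14 and -0.09. In both comparisons the same 9 members rose (BYSL, POLR1A, POLR1B, RRN3, RRP12, RRP1B, UTP15, UTP20 and WDR43), and 15 fell in both. These comparisons share the line without a domain, and each also shares its line without guides with a guide comparison, so that their values are given side by side and not as independent support. Of the 8 cycling markers, 7 fell in each comparison, and their part in the split was not tested.

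The split followed the roles only in part. Of the 5 RNA polymerase I genes among the members, 3 were higher in each comparison and none was lower. Of the 16 other RNA polymerase I factors listed below, 3 were higher and 5 lower with VP64, and 2 were higher and 5 lower with p65. The all-gene shares were 23.6% higher and 24% lower (VP64) and 24.7% and 24.9% (p65). These are small counts, and most of those for the 16 factors are near the shares. RRN3 rose by 0.42 (SE 0.0485, adjusted p = 2.62e-07) with VP64 and 0.51 (SE 0.0482, adjusted p = 1.4e-08) with p65. POLR1A, at 10.7, 11.3 and 11.9 TPM without a domain, rose by 0.41 (SE 0.0558, adjusted p = 3.32e-06) and 0.46 (SE 0.0556, adjusted p = 5.76e-07) to the levels given above. The 4 lines with a domain were all above the line without one for RRN3, library by library, whereas POLR1A with guides overlapped it.

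The small subunit group held genes of both directions. RRP12, at 35.9, 37.1 and 35.6 TPM without a domain, rose by 0.44 (SE 0.0476, adjusted p = 1.33e-07) and 0.52 (SE 0.0474, adjusted p = 7.33e-09). BYSL, at 79.5, 70.9 and 59.6 TPM, rose by 0.46 (SE 0.06, adjusted p = 1.41e-06) and 0.37 (SE 0.06, adjusted p = 2.27e-05). WDR43 rose by 0.23 and 0.29, UTP15 by 0.21 and 0.31 and UTP20 by 0.21 in both. UTP4, NOP14 and NOB1 fell in both, by log2 fold changes of -0.18 to -0.25. RRP9 passed only with VP64 (-0.14, adjusted p = 0.0499) and was lost without any 1 of the 6 libraries compared (adjusted p from 0.0537 to 0.173). HEATR1 passed only with p65 (0.19, adjusted p = 0.00643).

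The snoRNP and 60S groups were mostly lower. FBL, NOP56 and NOP58 fell in both, with log2 fold changes between -0.14 and -0.28. With the length offset NOP58 with p65 turned to 0.02 (adjusted p = 0.909) and FBL with p65 was lost (-0.12, adjusted p = 0.146). FBL was at 781, 763 and 718 TPM in the line without a domain. NHP2 gave -0.23 and -0.25 and NOLC1 -0.17 and -0.12, while DKC1 and GAR1 passed in neither. BOP1, at 125, 131 and 134 TPM without a domain, fell by log2 fold changes of -0.43 (SE 0.052, adjusted p = 5.29e-07) and -0.39 (SE 0.0519, adjusted p = 1.89e-06). LAS1L fell by -0.36 (SE 0.0505, adjusted p = 3.89e-06) and -0.35 (SE 0.0503, adjusted p = 5.95e-06), and NPM1, at 3906, 4010 and 4117 TPM, by -0.36 (SE 0.0419, adjusted p = 3.2e-07) and -0.30. RRP1B was the only member of the 60S group to rise in both (0.15 and 0.20). NOP16 (0.12) and DDX21 (0.20) rose only with p65, and NCL fell only with VP64 (-0.14); whether these effects differ between the domains is the comparison of p65 with VP64 without guides, which passed for none of them.

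Several calls in this split rested on single libraries. With VP64 against no domain, POLR1B (0.14) was lost without A or B of the VP64 line or B or C of the line without a domain (adjusted p from 0.0564 to 0.174), and NCL without C of the VP64 line or B of the line without a domain (0.0603 and 0.0881). RRP1B and UTP20 were lost without C of the line without a domain (0.073 and 0.0542). With p65, the falls of NOLC1 were lost without any 1 of the 6 libraries (adjusted p from 0.0568 to 0.104). NOP58 was lost without B or C of the p65 line or A or C of the other (0.0834 to 0.163), FBL without A of the p65 line or A or B of the other (0.0577 to 0.0847), and NOP2 without A of either line (0.0514 and 0.0864). NOP16 was lost without A or C of either line (0.0726 to 0.147) and UTP20 without C of the line without a domain (0.0505). The calls named above for MYC, RRN3, POLR1A, RRP12, BYSL, BOP1, LAS1L and NPM1 passed with each library left out. The effective-length offset ended further calls. With VP64 these were UTP15 (0.11, adjusted p = 0.32), POLR1B (0.0973), GNL3 (0.0835), NOB1 (0.0978), NOP58 (0.0967), RRP9 (0.13) and WDR12 (-0.06, 0.883). With p65 they were BYSL (0.28, adjusted p = 0.0606), NOP2 (0.233), FBL (0.146), NOLC1 (0.0602) and NOP16 (0.24), and NOP58 turned direction.

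**Figure D4:**
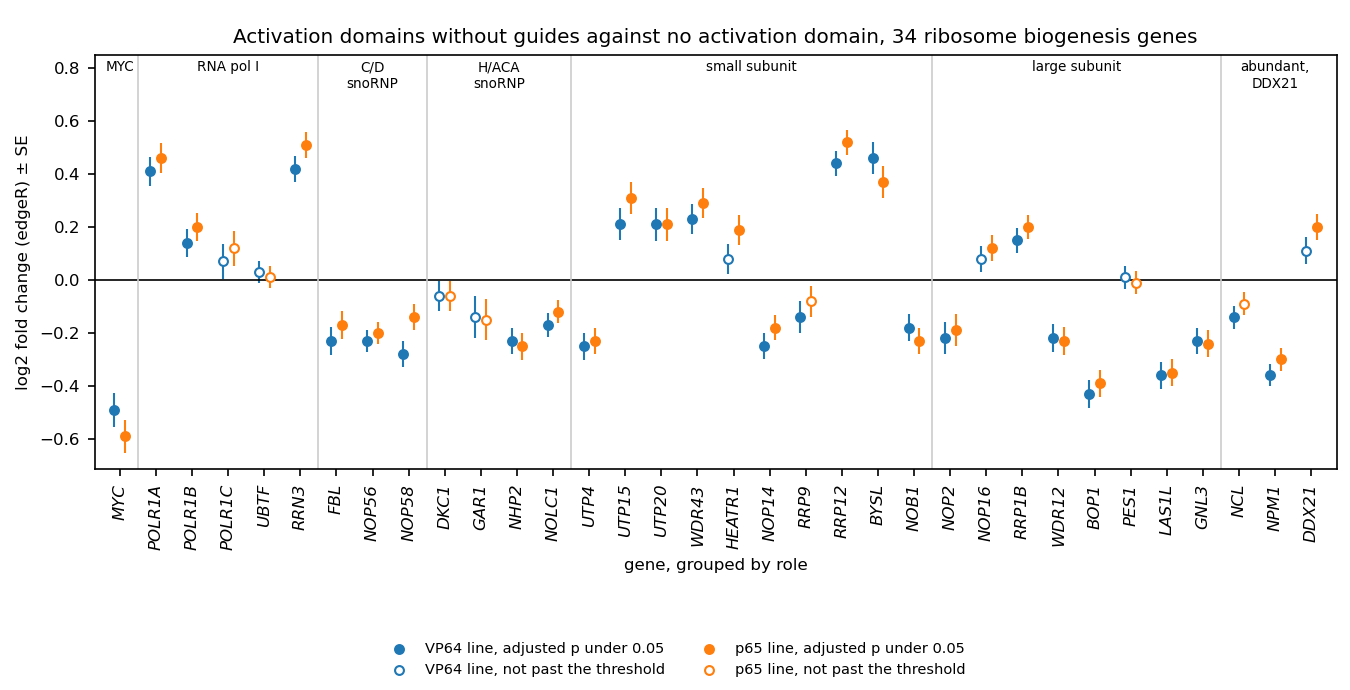
Log2 fold change of the 34 members (horizontal axis, grouped by role) in the VP64 line (blue) and the p65 line (orange), both without guides, against the line without an activation domain, ± SE from edgeR with 3 libraries per line. RRN3, POLR1A, RRP12 and BYSL are highest, from 0.37 to 0.52, and MYC is lowest at -0.49 and -0.59.

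Ordered by mean CPM over the 5 lines, the VP64 line with guides was lowest for 32 of 34 members. The order was listed for the members alone, with no share of all genes beside it. The exceptions were RRN3, lowest in the line without a domain, and UBTF, lowest in the p65 line with guides. The highest mean was in the line without a domain for 19 members, in the p65 line without guides for 12 and in the VP64 line without guides for 3. Neighbours in these orders, above all the lines with VP64 and p65 and no guides, were often within their spread, as the tests between them show.

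Other genes of the pathway moved in the same direction with guides. Of 137 further biogenesis genes in 5 lists (small subunit, large subunit, snoRNP, RNA polymerase I, and exosome), 103 fell and 1 rose with VP64, with a median of -0.29. With p65, 90 fell and 1 rose, with a median of -0.20. Of all genes, 21.3% were lower and 19.3% higher with VP64, and 20.2% and 18.7% with p65. The gene that rose in both was NOP53 (0.16 and 0.17), a large subunit factor also known for roles outside the ribosome. Against no activation domain, 25 of the 137 were higher and 33 lower with VP64 (median -0.02), and 33 were higher and 35 lower with p65 (median 0.01). The all-gene shares there, 23.6% higher and 24% lower with VP64 and 24.7% and 24.9% with p65, were close to these or above them, and the members had medians of -0.14 and -0.09. With guides and p65 against VP64, 22 were higher and none lower, where 3.72% of all genes were higher and 4.2% lower. No gene of the 5 lists passed in the difference of guide effects.

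By list, 36 of 46 small subunit factors fell with VP64 and 37 with p65, led by TSR1 (-0.43), NOL6 (-0.54) and NOL11 (-0.40) with VP64. Of 50 large subunit factors, 43 and 34 fell, with MRTO4 at -0.60 and -0.43, EBNA1BP2 at -0.54 with VP64 and BRIX1 at -0.57 with p65. Of 16 RNA polymerase I factors, a list that includes POLR1D and 5 other subunits shared with other polymerases, 8 fell in each pair. POLR1G, a subunit specific to RNA polymerase I, had the largest of these falls at -0.82 (SE 0.0658, adjusted p = 2.28e-09) and -0.77 (SE 0.0646, adjusted p = 4.44e-09). TCOF1 (treacle), which binds NOLC1 and the polymerase, gave -0.47 and -0.39 among 10 snoRNP factors, of which 6 and 5 fell. Of 15 exosome and RNA decay genes, 10 and 6 fell, with EXOSC9 at -0.45 and -0.47.

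**Figure D5:**
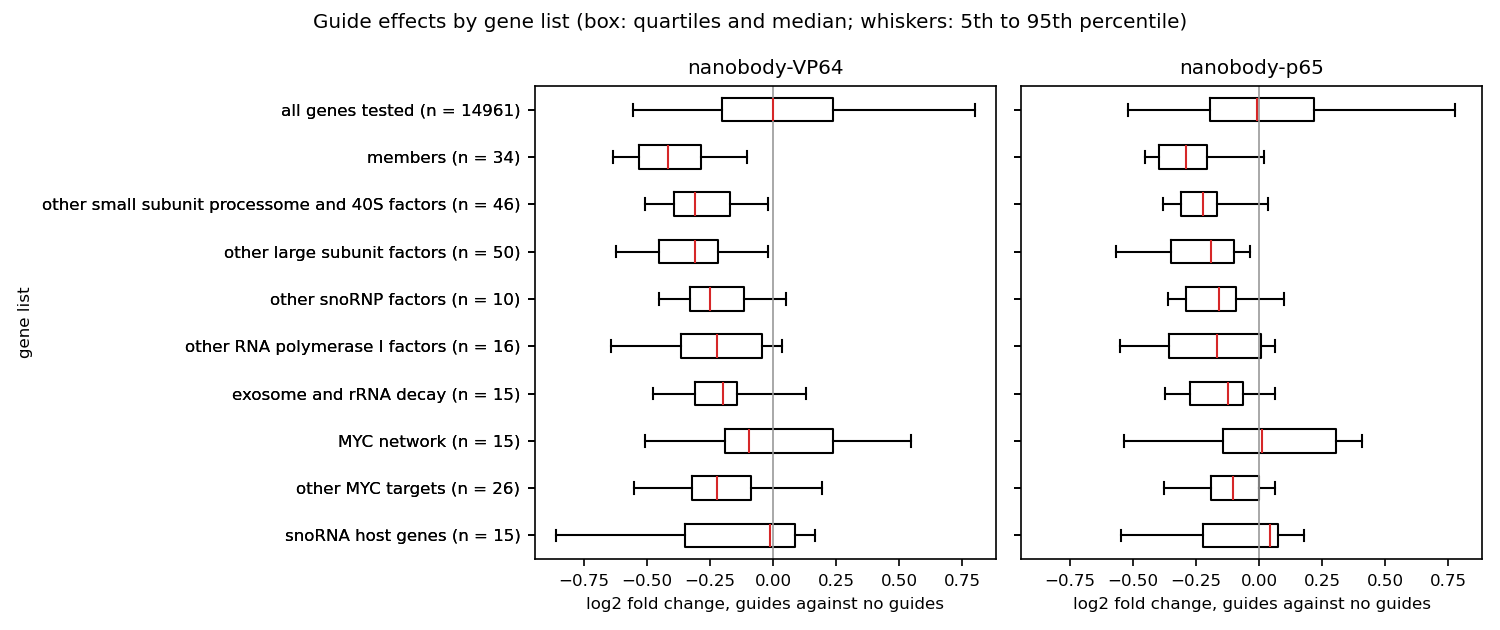
Log2 fold change with guides against no guides (horizontal axes, log2 scale) for all genes tested, the members and 8 other gene lists (vertical axis, n genes in brackets), in the VP64 pair (left) and the p65 pair (right). Boxes give the quartiles and the median (red), and whiskers the 5th and 95th percentiles; the medians of the members are -0.42 and -0.29, those of the large subunit factors -0.31 and -0.19, and those of the snoRNA host genes -0.01 and 0.04.

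Of 15 tested genes of the MYC network, 4 rose and 4 fell with VP64, and 6 rose and 3 fell with p65. With 21.3% of all genes lower and 19.3% higher with VP64, and 20.2% and 18.7% with p65, most of these counts are near the background. MXD4 (0.58 and 0.39) and MXI1 (0.54 and 0.37) rose in both pairs, as did MNT and ZBTB17 (MIZ1). MXD1 passed in neither pair (-0.14 and -0.10), and MYCL rose with p65 alone (0.43, adjusted p = 0.0387). MYCBP, a MYC-binding protein, fell by log2 fold changes of -0.79 in both, and MGA (-0.39 and -0.43) and MLXIP (-0.22 and -0.19) fell as well. Against no activation domain, 5 of the 15 rose and 5 fell with VP64, and 4 rose and 4 fell with p65. The all-gene shares there were 23.6% higher and 24% lower (VP64) and 24.7% and 24.9% (p65). MXD3 fell (-0.89 and -1.22) beside MYC itself, but rose with guides in the p65 pair (0.33, adjusted p = 0.0106). MNT (-0.25 and -0.31) and ZBTB17 (-0.34 and -0.37) fell as well. MXI1 fell with VP64 (-0.30, adjusted p = 0.0347) and did not pass with p65. MXD4 (0.31 and 0.33), MYCBP (0.42 and 0.56), MLXIP (0.48 and 0.50) and MYCL (0.55 and 0.72) rose.

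Of 26 further genes known as MYC targets outside ribosome production, 19 fell and 1 rose with VP64 and 13 fell and none rose with p65. The all-gene shares with guides were 21.3% lower and 19.3% higher (VP64) and 20.2% and 18.7% (p65). ODC1, the first enzyme of polyamine synthesis, gave -0.67 and -0.49, the transferrin receptor TFRC -0.57 and -0.30, and CAD, an enzyme of pyrimidine synthesis, -0.42 and -0.41. SHMT1 was the gene that rose with VP64 (0.23). Against no activation domain 13 fell and none rose with VP64, and 11 fell and 1 rose, PPAT (0.30, adjusted p = 0.000247), with p65, where 24% and 24.9% of all genes were lower. The falls were led by LDHA (-0.47 and -0.49) and SHMT2 (-0.49 and -0.47).

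Among 15 host genes of small nucleolar RNAs, 4 fell and 1 rose with VP64, and 3 fell and 2 rose with p65. These counts are near the all-gene shares of 21.3% lower and 19.3% higher (VP64) and 20.2% and 18.7% (p65). SNHG15 (-1.02 and -0.45), SNHG1 (-0.80 and -0.68) and SNHG3 (-0.77 and -0.50) fell in both, and SNHG5 rose in both (0.18 and 0.20). Against no activation domain 11 of the 15 fell and 1, SNHG16, rose in each comparison. There 24% (VP64) and 24.9% (p65) of all genes were lower. SNHG5 gave -0.52 and -0.48, and GAS5 gave -0.54 and -0.49. NOP56, NOP58, NCL, DKC1, WDR43 and GNL3 are hosts of small nucleolar RNAs too, and whether reads of the embedded RNAs entered their counts is not stated. Among the members, NOP14, NOP16, NHP2, UTP15, POLR1C, UBTF and others overlap a gene on the opposite strand, and the sources used here do not give the strandedness of the libraries.

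The members were also listed by the E-box, as a description with no test of the difference. The 12 with the motif had a median of -0.44 with VP64 and -0.29 with p65, and 11 fell in each. The 16 in the promoter table without it had medians of -0.35 and -0.25, with 13 and 12 falling. The 6 members that were not searched had medians of -0.47 and -0.36, with 5 and 4 falling. Of all genes tested, 21.3% (VP64) and 20.2% (p65) were lower. The ranges with and without the motif overlapped, from -0.67 to -0.10 with the motif and from -0.63 to -0.06 without it in the VP64 pair. Against no activation domain, 3 of the 12 rose and 6 fell with VP64 (median -0.14), and 4 of the 16 rose and 7 fell (median -0.01). With p65, 4 of the 12 rose and 5 fell (median -0.11), and 6 of the 16 rose and 6 fell (median -0.02). The all-gene shares were 23.6% higher and 24% lower (VP64) and 24.7% and 24.9% (p65). With VP64 the numbers that rose are near that share.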

How the data were processed

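Total RNA of 15 MelJuSo libraries (5 lines, 3 libraries each) was analysed from gene tables in which the authors deposited an expected count, a TPM value and an effective length per gene. Per the submitters' processing notes, the tools were STAR and RSEM and the genome was hg38; their versions and the strandedness of the libraries are left unstated in the sources used here. The deposited TPM values are expected counts scaled by effective length and by the library total, so that a change in assigned transcripts moves them. Symbols were matched through GENCODE release 29 for 58721 of 58813 entries, and the other 92 were left out.

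Expected counts were rounded and tested in edgeR 4.0.16 (R 4.3.3, limma 3.58.1) with TMM scaling, filterByExpr at a minimum count of 10, 1 coefficient per line over all 15 libraries, and the quasi-likelihood test. Benjamini-Hochberg adjustment ran over all 14961 genes tested in each comparison, with a threshold of 0.05. The procedure was tested on simulated data. DESeq2 1.42.0 and other alternatives were run on the same counts. Depth was 15643705 to 23072512 expected counts per library, and the biological coefficient of variation was 5.45%. Intervals are the edgeR estimate with 95% limits from a t distribution on 10 residual degrees of freedom. The test also uses degrees of freedom shared across genes, so that an interval can be wider than its p-value implies. GAR1 in the difference of guide effects is such a case, with an interval that includes 0 and an unadjusted p under 0.05.

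The rule for named genes took all 34 members, up to 6 called members per direction in a comparison by size, and up to 3 genes per direction of each other list by p. Per-library TPM was fixed for MYC, for NPM1 as the most abundant member, and for the 3 members with the largest mean guide effect. Members and lists were chosen with earlier results of these data known. TAF1D is in more than 1 list.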

Additional observations from a re-analysis of the deposited data

Results flagged for a closer look

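Among the members and the 8 other gene lists, cell type markers left aside, the guide effect differed between the p65 and VP64 pairs for 4 genes. This is by the edgeR test of the difference itself (p65 minus VP64, 3 libraries per line). Of the melanoma and melanocyte markers, DCT was called lower in the same test. On the log2 scale, BYSL differed by 0.38 (SE 0.0863, adjusted p = 0.0296). Its level went from 93.8 ± 3.42 to 58.8 ± 3.78 CPM (SD, n = 3) with VP64 and from 87.9 ± 5.75 to 71.8 ± 6.32 CPM with p65. SNHG15, a host gene of small nucleolar RNAs, differed by 0.57 (SE 0.102, adjusted p = 0.00501), with guide effects of -1.02 and -0.45. CTPS1, an enzyme of CTP synthesis, differed by 0.48 (SE 0.105, adjusted p = 0.0253), at 168 ± 1.62 against 118 ± 13.7 CPM with VP64 and 186 ± 5.15 against 182 ± 26.5 CPM with p65. TFRC differed by 0.27 (SE 0.0638, adjusted p = 0.0394), with guide effects of -0.57 and -0.30. The BYSL call was lost without any 1 of 7 libraries, with the length offset and with only the libraries compared. No such check is given for SNHG15, CTPS1, TFRC and DCT.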

How the results depend on the processing

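Libraries share only the letters A to C: deviations of libraries that share a letter had correlations of -0.073 to 0.0635, and 4 of 18 matched best with their own letter. A replicate block gave 29 (VP64) and 28 (p65) members lower with guides and changed no count by over 1.5 times; with it, POLR1C passed with p65 guides (adjusted p = 0.0458). Falls with guides covered 26 to 29 members (VP64) and 21 to 28 (p65) over 8 other settings, and 28 to 29 and 27 to 29 with 1 library left out, where 0 to 1 rose with p65. Members higher in p65 than VP64 with guides were 13 with no filter, 12 by DESeq2 and 5 to 14 with 1 library left out. Members higher in the difference of guide effects were 0 with an effective-length offset, 0 with only the libraries compared, 2 by DESeq2 and 0 to 1 with 1 library left out. Of all genes, p65 guides called 3851 with the length offset. P65 against VP64 without guides called 545 with no filter, 109 with the offset and 185 to 301 with 1 library left out; with guides it called 436 with the offset, 706 with only the libraries compared and 681 to 1129 with 1 left out. The difference called 360 with no filter, 31 with the offset, 232 by DESeq2 and 91 to 176 with 1 left out. Reversed values were those of WDR12 with p65 guides (0.33 with the offset, and -0.20 in CPM against a higher mean TPM) and NOP58 in p65 against no domain (0.02). The cause was not tested.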
